A study of Mus musculus with 4 samples.

Results

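N6-methyladenosine (m6A) is the most abundant internal modification of mRNA, and 10 genes that place it or remove it were followed here, gene by gene, in mouse embryonic stem cells (ESCs). They were taken by name: Mettl3 and Mettl14, the core pair of the methyltransferase complex, its regulatory subunits Wtap, Virma, Zc3h13, Rbm15, Rbm15b and Cbll1, and the demethylases Fto and Alkbh5. All 10 have a row in the deposited table of 49997 genes, and all 10 passed the filter on low counts that left 18341 genes for testing. The rule that names them uses no measured value.

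The study compared ESCs that stably carried a lentiviral short hairpin RNA, either a scrambled control (shScramble) or one against Ythdf2 (shYthdf2), with 2 libraries of poly(A)-selected RNA in each group. The labels name the E14 line. Per the study's methods the ESCs hold a tdTomato reporter driven by the MERVL promoter, both groups were infected with lentivirus and selected with puromycin, and the cells grew on gelatin in serum replacement with leukemia inhibitory factor. The labels do not say which of the study's hairpins against Ythdf2 the shYthdf2 libraries carry, and neither group is said to be a single clone. No age or developmental time is given for the cells, and no group lacked a hairpin. The methods call the 2 libraries of a group independent biological replicates.

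METTL3 is the catalytic subunit of the m6A writer. METTL14 binds it, holds the RNA and has no catalytic activity of its own. WTAP keeps the pair in nuclear speckles, VIRMA is a large scaffold, ZC3H13 joins the parts of the regulatory module and helps to keep it in the nucleus, RBM15 and RBM15B bring the complex to particular RNAs such as Xist, and CBLL1 (also called HAKAI) is a ring-finger protein. FTO and ALKBH5 are iron- and 2-oxoglutarate-dependent dioxygenases that take the methyl group off. YTHDF2 acts after them, as a cytoplasmic reader that binds m6A and sends the transcript to decay. In ESCs, loss of Mettl3 or Mettl14 is known to impair the exit from pluripotency.

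The difference in role between the core subunits can be read in their coding sequences, shown here because it sets the catalytic subunit apart from its partner. Below, the 4 codons of the METTL3 catalytic motif Asp-Pro-Pro-Trp and of the corresponding Glu-Pro-Pro-Leu of METTL14 are in capitals.
Mettl3: gtgatggctGACCCACCTTGGgatattcac
Mettl14: attctcctgGAGCCCCCTCTGgaagaatac
The Mettl3 motif spans codons 395 to 398, and the 30 bases printed lie on the minus strand at chr14:52297572-52297601 (mm10), in exon 6 of 11. The Mettl14 motif spans codons 192 to 195, and its 30 bases lie on the minus strand at chr3:123374796-123374825, in exon 7 of 11. Each motif was found once in its reading frame.

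The writers and erasers are themselves mRNAs that may carry the mark, so their transcripts were searched for GGACT, a core form of the m6A consensus, on the transcript strand only. Here 21 bases are printed for the 2 members in which the last GGACT of the coding sequence lies closest to the stop codon, the region where m6A is known to gather, with the motif in capitals.
Wtap: aatggcttGGACTcaaatgta
Fto: agtcgtccGGACTttaccagt
In Wtap the motif lies 32 bases before the end of the coding sequence (chr17:12967492-12967512, minus strand, exon 8 of 8). In Fto it lies 129 bases before it (chr8:91666294-91666314, plus strand, exon 9 of 9). All 10 members hold a GGACT somewhere in the transcript with the longest coding sequence, as do 85.2% of 21760 coding genes. Mettl3, Mettl14, Wtap, Fto and Alkbh5 hold one within 200 bases of the stop codon, which makes 5 of 10 beside 35.3% of coding genes. The number per kilobase ran from 0.461 in Rbm15 to 1.98 in Mettl3, around a median of 1.03 over all coding genes. A match is a description of the letters and not a measured m6A site, since methylation was not analysed here.

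The target of the hairpin was checked first. Ythdf2 (chromosome 4, 132184916 to 132212256, minus strand, mm10) stood at 93.4 and 87.6 CPM (counts brought to one library size, with TMM scaling between libraries) in shScramble and at 31.8 and 30.2 CPM in shYthdf2. Both knockdown libraries lay far below both controls. The log2 fold change was -1.55 (SE 0.11, 95% interval -1.80 to -1.29, edgeR adjusted p = 0.00069), so 0.342 of the control level remained. Every fold change below is shYthdf2 against shScramble from this fit across all genes, with p-values adjusted by Benjamini-Hochberg.

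Libraries held between 31113006 and 36422510 counted reads, and between 25155 and 25745 genes had a read in each. The 8 ESC markers were all detected, with Pou5f1 highest at a mean of 1090 CPM. They summed to 6100 and 5990 CPM in shScramble and to 5680 and 5240 CPM in shYthdf2, where both knockdown libraries lay below both controls. Of the 8, edgeR called 0 higher and 1 lower, beside 2.43% and 1.49% of all genes tested. Their median log2 fold change was -0.13, but not all were lower, since that of Pou5f1 was 0.135. Markers of primitive endoderm summed to 12.3 to 19.9 CPM and those of fibroblasts to 9.54 to 18 CPM. Most of the fibroblast sum was Thy1, at a mean of 12.4 CPM, and Dcn was at 0. The trophectoderm markers summed to 76.1 to 108 CPM, nearly all of it Tfap2c, at a mean of 82.1 CPM. The 9 markers of 2-cell-like cells, which make up a small share of an ESC culture, summed to 32.2 and 48 CPM in shScramble and to 64.1 and 173 CPM in shYthdf2. Both knockdown libraries lay above both controls and apart from each other. Of the 8 markers tested, edgeR called 2 higher and 0 lower, beside the same shares of all genes tested. The part of 2-cell-like cells in the values of the writers and erasers was not tested. In bulk RNA, fewer cells of a type and less RNA per cell cannot be told apart.

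None of the 10 writer and eraser genes passed the test. At an adjusted p under 0.05, edgeR called 0 of 10 higher and 0 of 10 lower, beside 2.43% of all genes tested called higher and 1.49% lower. At an unadjusted p under 0.05 the count was also 0 of 10, beside 20.8% of genes in either direction. In either direction edgeR called 3.91% of all genes. DESeq2 and limma-voom called 0 of 10 at an adjusted p under 0.05 as well. Beside this stood 8.90% of the 15750 genes given an adjusted p by DESeq2 and 3.39% of 18341 in limma-voom. The study's criteria in DESeq2 were an unadjusted p of at most 0.05 and a log2 fold change of at least 1 in size. They took 0 of 10, beside 2.88% of the 30565 genes with a read. Of the 10 log2 fold changes 5 were above 0 and 5 below, from -0.21 for Cbll1 to 0.13 for Fto, with a median of -0.06 beside 0.00 over all genes tested. The adjusted p-values ran from 0.32 to 0.98.

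A p that misses the threshold leaves a range of sizes, so intervals are given for every member. Standard errors lay between 0.10 and 0.17 on the log2 scale. All 10 of the 95% intervals lay within a 1.5-fold change in either direction, which was true of 35.9% of all genes tested and of 77.9% of the 3347 genes whose mean CPM lay in the members' range. In that same range 5.71% of genes passed an adjusted p under 0.05. The members had 1195 to 4684 reads in a library, where counting alone gives an error of 2.9% at the low end and 1.5% at the high end, or 4.1% and 2.1% if each pair of reads is taken as 1 molecule. Over the 10 members, the median absolute difference between the control libraries was 0.12 on the log2 scale, and the median absolute fold change was 0.12. For genes in the members' range of CPM these medians were 0.11 and 0.16. A gap between single libraries spreads more than a difference between group means, so these are unlike measures.

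**Figure D1:**
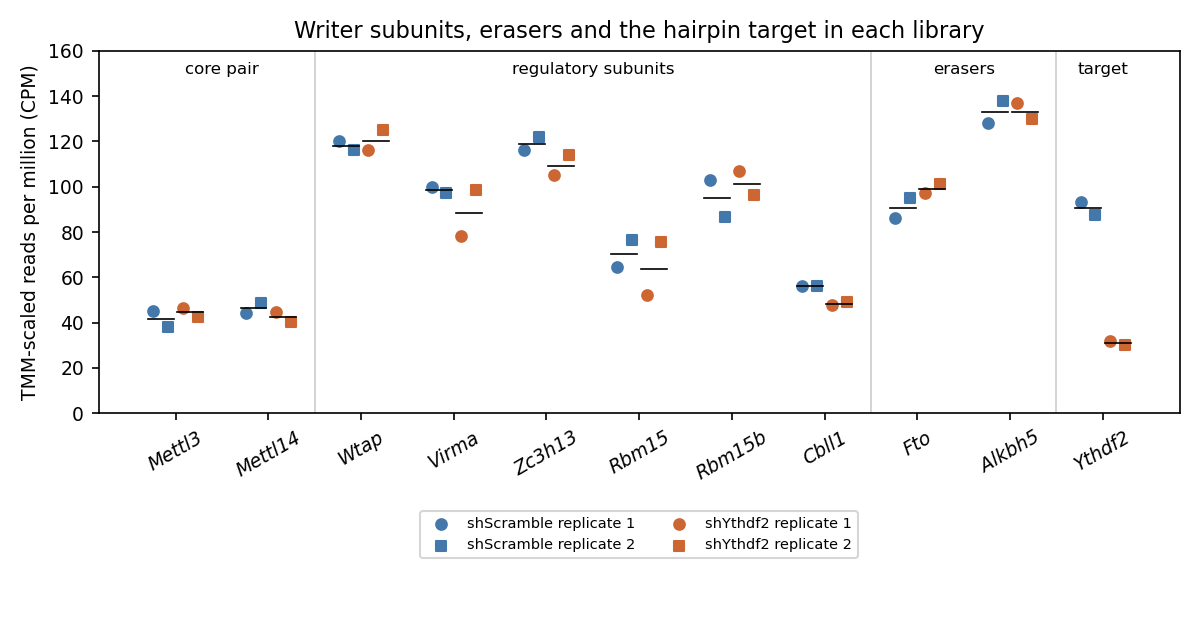
Level of each member and of Ythdf2 in each of the 4 libraries, in TMM-scaled CPM on a linear axis from 0, with shScramble in blue, shYthdf2 in orange, replicate 1 as circles, replicate 2 as squares and a black line at each group's mean of 2 libraries. The members' groups lie close together or overlap, while Ythdf2 stands at 93.4 and 87.6 CPM in the controls and at 31.8 and 30.2 CPM in the knockdown libraries.

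In the core pair neither subunit passed the test, and both had overlapping groups. Mettl3 (chromosome 14, 52294841 to 52308741, minus strand) stood at 45.3 and 37.9 CPM in shScramble and at 46.6 and 42.6 CPM in shYthdf2. The higher library of each group was its replicate 1, and the groups overlapped. The group levels were 41.6 ± 5.22 and 44.6 ± 2.8 CPM (SD, n = 2), and the fit gave a log2 fold change of 0.10 (SE 0.13, 95% interval -0.20 to 0.40, edgeR adjusted p = 0.73). Of its exon bases, 253 (4.4%) are shared with Tox4 on the opposite strand, which had 3369 to 4156 reads per library, and reads were counted without regard to strand.

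Mettl14 (chromosome 3, 123368295 to 123385990, minus strand) stood at 44.2 and 48.5 CPM in shScramble and at 44.6 and 40.4 CPM in shYthdf2. One knockdown library lay between the controls and the other below both. Its levels of 46.4 ± 3.04 and 42.5 ± 2.97 CPM (SD, n = 2) gave a log2 fold change of -0.12 (SE 0.12, 95% interval -0.40 to 0.15, edgeR adjusted p = 0.62). Summed, the core pair came to 89.5 and 86.4 CPM in the controls and 91.2 and 83 CPM in the knockdown, and the groups overlapped.

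The 6 regulatory subunits held 4 estimates below 0 and 2 above. Wtap (chromosome 17, 12966799 to 12992543, minus strand), the subunit that places the pair in nuclear speckles, stood at 120 and 116 CPM in shScramble and at 116 and 125 CPM in shYthdf2. The groups overlapped, and the log2 fold change was 0.03 (SE 0.10, 95% interval -0.20 to 0.26, edgeR adjusted p = 0.91). Of the 150-base windows of its transcript, 5.21% also occur in the transcript of Gm14292, annotated as a processed pseudogene. The other 9 members share no such window with another gene's transcript. Only the transcript strand was searched, so exon bases shared with genes on the opposite strand are not covered and are given gene by gene.

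Virma (chromosome 4, 11485958 to 11551143, plus strand), the scaffold, stood at 100 and 97.3 CPM in shScramble and at 78.2 and 98.4 CPM in shYthdf2. Only shYthdf2 replicate 1 was low, and the other knockdown library lay between the controls. The log2 fold change was -0.16 (SE 0.13, 95% interval -0.44 to 0.12, edgeR adjusted p = 0.52). It was -0.01 without shYthdf2 replicate 1 and -0.34 without shYthdf2 replicate 2, so that 1 library decided its size.

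Rbm15 (chromosome 3, 107305511 to 107334460, minus strand), an RNA-binding adaptor, had the widest spread of the members. It stood at 64.4 and 76.4 CPM in shScramble and at 52.3 and 75.6 CPM in shYthdf2, again with shYthdf2 replicate 1 lowest. The log2 fold change was -0.14 (SE 0.17, 95% interval -0.52 to 0.24, edgeR adjusted p = 0.7). It turned to 0.10 without shYthdf2 replicate 1. Without shYthdf2 replicate 2 it was -0.43 and passed, in a fit that called more of all genes than the main one. There the single remaining knockdown library is taken to vary as the controls do. Of the exon bases of Rbm15, 978 (3.9%) are shared with Slc16a4 on the opposite strand, which had 13 to 19 reads per library.

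Its paralogue Rbm15b (chromosome 9, 106880928 to 106887075, minus strand) stood at 103 and 86.7 CPM in shScramble and at 107 and 96.5 CPM in shYthdf2. The groups overlapped, with replicate 1 the higher library in each. The log2 fold change was 0.10 (SE 0.12, 95% interval -0.17 to 0.37, edgeR adjusted p = 0.7), and 65 of its exon bases (1.1%) are shared with Dcaf1 on the opposite strand, which had 5282 to 6615 reads per library.

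Zc3h13 and Cbll1 were the regulatory subunits whose groups did not overlap. Zc3h13 (chromosome 14, 75284306 to 75344433, plus strand) stood at 116 and 122 CPM in shScramble and at 105 and 114 CPM in shYthdf2. Both knockdown libraries lay below both controls by a narrow margin, and the log2 fold change was -0.12 (SE 0.11, 95% interval -0.36 to 0.12, edgeR adjusted p = 0.57).

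Cbll1 (chromosome 12, 31484829 to 31500676, minus strand) stood at 56.1 and 56.2 CPM in shScramble and at 47.7 and 49.1 CPM in shYthdf2. The libraries of each group lay close together and the groups apart. The log2 fold change of -0.21 (SE 0.11, 95% interval -0.46 to 0.04) corresponded to 0.862 of the control level, with an interval from 0.725 to 1.02. It did not pass, with an unadjusted p of 0.085 and an adjusted p of 0.32 in edgeR's test across all genes. Its estimate was the steadiest of the members when a library was left out, from -0.24 to -0.19. Of its exon bases, 227 (4.2%) are shared with Gm40362, which had 0 reads in each library.

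Both erasers had estimates above 0, and neither passed. Fto (chromosome 8, 91313367 to 91668433, plus strand) stood at 86 and 95.1 CPM in shScramble and at 97.1 and 101 CPM in shYthdf2, so both knockdown libraries lay above both controls. The log2 fold change was 0.13 (SE 0.11, 95% interval -0.11 to 0.37, edgeR adjusted p = 0.55), or 1.09 times the control level. Alkbh5 (chromosome 11, 60537683 to 60558512, plus strand) stood at 128 and 138 CPM in shScramble and at 137 and 130 CPM in shYthdf2. Its knockdown libraries lay between the controls, at 133 ± 7.14 and 133 ± 5.01 CPM (SD, n = 2), and its log2 fold change was 0.01 (SE 0.11, 95% interval -0.23 to 0.24, edgeR adjusted p = 0.98).

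In all, the groups did not overlap for 3 of the 10 members, 1 higher (Fto) and 2 lower (Zc3h13 and Cbll1), beside 51.8% of all genes tested, 26.2% higher and 25.5% lower, and 58.6% of the genes in the members' range of CPM. Which members separated moved with the scaling. With upper quartile scaling 0 were higher and 4 lower (Mettl14, Virma, Zc3h13 and Cbll1), beside 25.1% and 26.9% of all genes tested. With library totals 0 were higher and 1 lower (Cbll1), beside 26.5% and 25.6%. Cbll1 was thus the member that stayed apart under each of the 4 scalings run, RLE among them. The share of all genes that stayed apart under all 4 was not computed, so this has no background beside it.

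**Figure D2:**
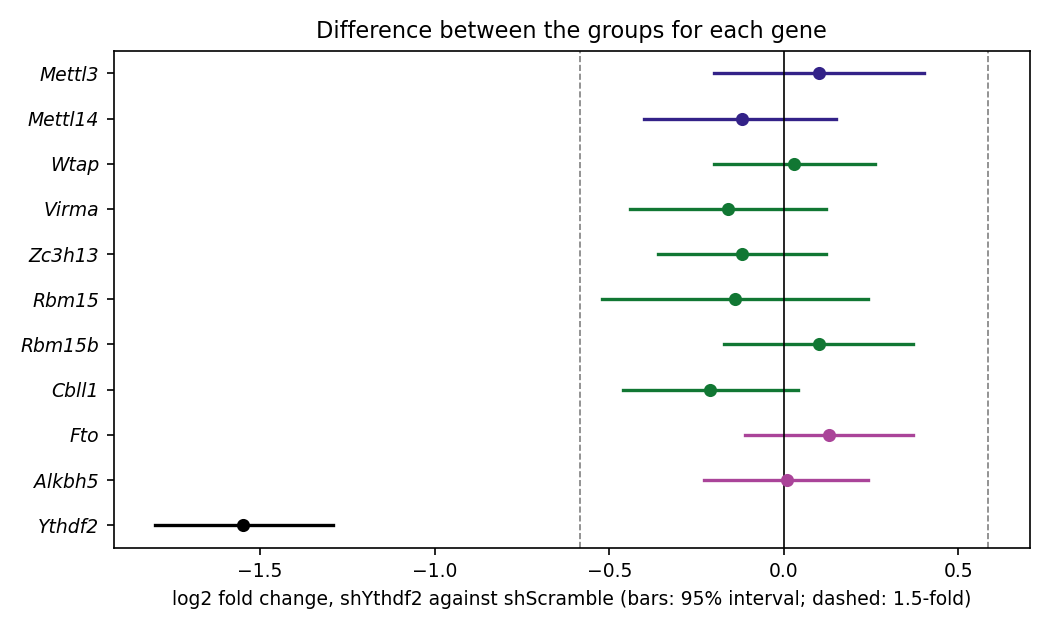
Log2 fold change of each member and of Ythdf2, shYthdf2 against shScramble, with bars for the 95% interval of edgeR's fit and dashed lines at a 1.5-fold change in either direction. The 10 members' points lie between -0.21 and 0.13 with all bars inside the dashed lines and across 0, and Ythdf2 lies at -1.55.

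Leaving out each library in turn showed what the estimates rest on. The sign held in every such fit for Mettl14, Virma, Zc3h13, Cbll1 and Fto, and these 5 members kept one sign in all 13 other fits run. The sign turned for Mettl3 and Rbm15b without shScramble replicate 2 (-0.02 for each), for Wtap without shYthdf2 replicate 2 (-0.02), for Rbm15 without shYthdf2 replicate 1 (0.10) and for Alkbh5 without shScramble replicate 1 (-0.04) or shYthdf2 replicate 1 (-0.03). Mettl3 and Rbm15b moved together, from -0.02 to 0.23 in both, since each was lowest in shScramble replicate 2. Virma and Rbm15 were both lowest in shYthdf2 replicate 1.

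**Figure D3:**
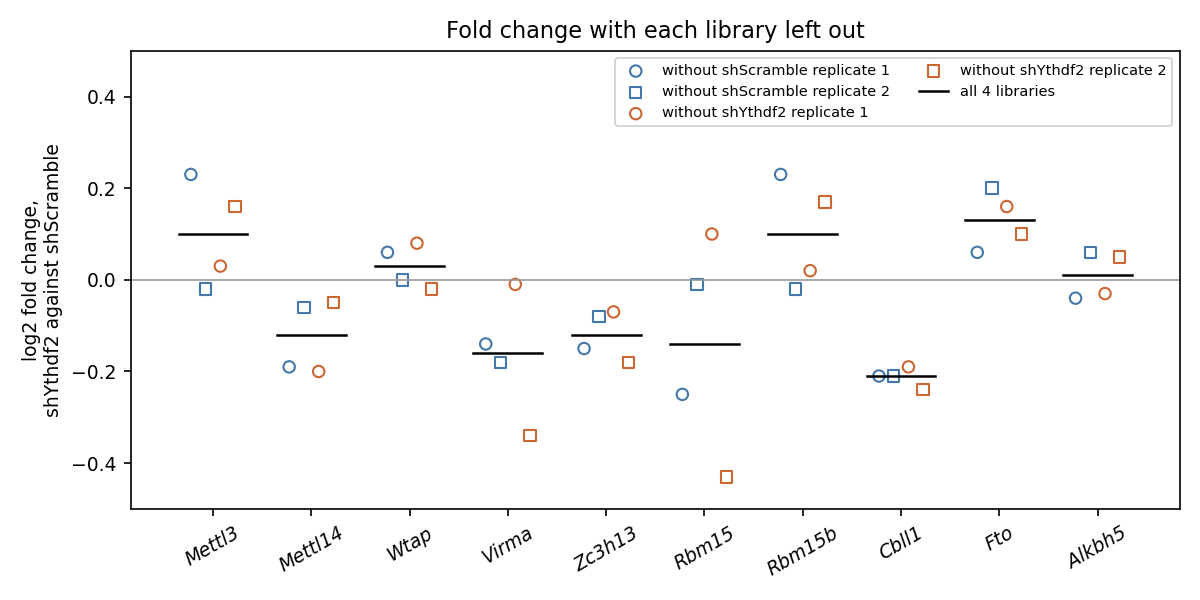
Log2 fold change of each member, shYthdf2 against shScramble, with all 4 libraries (black lines) and with each library left out in turn (open symbols, blue for a control and orange for a knockdown library left out). Rbm15 ran from -0.43 to 0.10 and Cbll1 from -0.24 to -0.19.

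Every member was read in every library, and levels per length of several neighbours in the order overlapped. Per length, as CPM per kilobase (RPKM) with all exons of a gene merged into one length, Alkbh5 was highest at 22.1 ± 0.838 (SD over 4 libraries), followed by Fto at 21 ± 1.41. Wtap (18.1), Zc3h13 (17.8), Mettl14 (16.9) and Rbm15b (16) came next in level per length. Virma (13.1), Cbll1 (9.77), Mettl3 (7.48) and Rbm15 (2.68) were lowest. Over the 4 libraries the ranges of Alkbh5 and Fto overlapped, and so did those of each neighbouring pair from Wtap to Rbm15b. Fto and Wtap did not overlap, by a narrow margin (lowest Fto 19.1, highest Wtap 19). Rbm15b and Virma were barely apart, with a lowest and a highest value that both round to 14.1. Each step from Virma down to Rbm15 was also free of overlap. Among all genes tested, whose median was 3.42 in the same unit, the members stood between the 46.3 and the 82.3 percentile.

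This order depends on the length used. The union of exons of Rbm15 spans 25040 bases, while its GENCODE M21 transcript with the longest coding sequence has 4343. With the length of that transcript for each gene, an alternative chosen after the data had been seen, Wtap led at 58 RPKM and Fto followed at 26.6. Alkbh5 stood at 23.2, Mettl3 at 21.3 and Rbm15 at 15.5 on that scale, and Cbll1 was lowest at 13.4. The low place of Mettl3 and Rbm15 in the first order was not kept, and the counts do not say which transcripts of a gene were read.

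**Figure D4:**
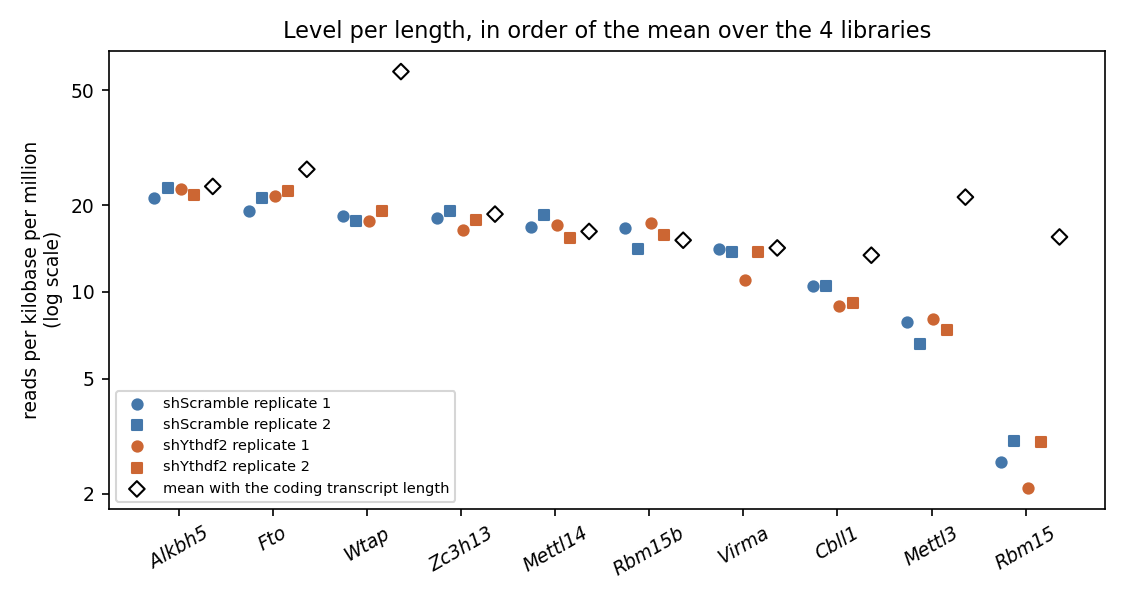
Level per length of each member in each of the 4 libraries, in CPM per kilobase of exon (RPKM) on a log axis, ordered by the mean, with open diamonds for the mean when the length of the GENCODE coding transcript is used. Alkbh5 leads at 22.1 and Rbm15 is last at 2.68 by exon union, and the diamonds lift Wtap to 58, Mettl3 to 21.3 and Rbm15 to 15.5.

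The balance between transcripts was read within each library as a ratio of levels per length, as a description with no test. Ratios of other genes were not computed, so a gap between the groups in a ratio has no background share beside it. The log2 ratio of Mettl3 to Mettl14 was -1.10 and -1.49 in shScramble and -1.07 and -1.06 in shYthdf2. With the GENCODE transcript length it was 0.47 and 0.08 in shScramble and 0.50 and 0.51 in shYthdf2. Its sign thus depends on the length used. The difference between the groups cannot, because length cancels from it when each side of the ratio is a single gene. The knockdown libraries lay above both controls, by a mean of 0.23, which is less than the SD of 0.28 between the controls. It rested on shScramble replicate 2, with a difference of 0.03 without that library and of 0.42 without shScramble replicate 1. The summed regulatory subunits against the core pair gave 1.70 and 1.64 in shScramble and 1.55 and 1.78 in shYthdf2, with overlapping groups and a difference of 0.00 between the means. With CPM summed without regard to length, which weights the members differently, that difference was -0.05, and the groups overlapped as well.

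For the erasers, the log2 ratio of their sum to the core pair was 0.70 and 0.81 in shScramble and 0.82 and 0.95 in shYthdf2. The means differed by 0.13 beside SDs of 0.07 and 0.09, with a narrow gap between the groups that the choice of length decides. As a ratio of summed CPM the values were 1.26 and 1.43 in shScramble and 1.36 and 1.48 in shYthdf2, which overlap and differ by 0.08, and with the GENCODE transcript length they also overlapped, with a difference of 0.07. Fto against Alkbh5 gave -0.15 and -0.12 in shScramble and -0.08 and 0.05 in shYthdf2, a difference of 0.12. With the GENCODE transcript length the values were 0.11 and 0.15 in shScramble and 0.19 and 0.32 in shYthdf2. The sign of this ratio thus depends on the length used, while length cancels from the difference of 0.12. With a library left out that difference ran from 0.06 to 0.19, and the difference for erasers against the core pair also ran from 0.06 to 0.19. In summed CPM, all 10 members came to 862 and 874 in the controls and to 831 and 872 in the knockdown, and the groups overlapped.

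Beside the members stand 47 other genes of the m6A pathway, in 6 lists taken from general knowledge. Of these, 0 were higher and 2 lower at an adjusted p under 0.05 in edgeR, Ythdf2 itself and Ahcyl1, beside 2.43% and 1.49% of all genes tested. With no adjustment, 2 passed p 0.05 as higher and 8 as lower, beside 11.0% and 9.80% of all genes. The median log2 fold change of the 47 was 0.02.

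Of the 13 readers, Ythdf2 alone passed, and 6 passed an unadjusted p of 0.05, 1 higher and 5 lower with Ythdf2 among them. Over all genes tested, 11.0% passed that threshold as higher and 9.80% as lower. Ythdf1, the paralogue tied to translation, had a log2 fold change of 0.32 (edgeR adjusted p = 0.17). Below 0 and short of the adjusted threshold were Fmr1, the fragile X protein gene (-0.42, edgeR adjusted p = 0.076), Igf2bp2 (-0.35, edgeR adjusted p = 0.15) and Igf2bp3 (-0.34, edgeR adjusted p = 0.16), whose proteins stabilise bound mRNA, and Prrc2a (-0.34, edgeR adjusted p = 0.1). In DESeq2, Fmr1 and Prrc2a passed as lower (adjusted p = 0.02 and 0.03), beside 8.90% of the 15750 genes given an adjusted p there, in either direction. With a library left out in edgeR, Fmr1 ran from -0.55 to -0.31, Prrc2a from -0.42 to -0.26 and Ythdf1 from 0.17 to 0.49. Igf2bp2 ran from -0.46 to -0.22 and Igf2bp3 from -0.46 to -0.23. Among 6 other methyltransferases for m6A and m6Am, 0 passed by either p, from Mettl4 at -0.29 to Trmt112, the cofactor of METTL5, at 0.14. The 7 other AlkB dioxygenases also held 0 by either p, and ran from -0.11 for Alkbh3 to 0.36 for Alkbh4, with a median of 0.12.

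The list for supply and recycling of the methyl donor S-adenosylmethionine held the single other gene that passed. Ahcyl1, listed there as an AHCY-like protein, encodes a protein that binds the IP3 receptor. It stood at 103 and 106 CPM in shScramble and at 78.9 and 73.4 CPM in shYthdf2, with both knockdown libraries below both controls. It fell by 0.46 on the log2 scale (SE 0.11, edgeR adjusted p = 0.045). It passed in 11 of 13 other fits, and missed when either control library was left out, with an adjusted p of up to 0.15 in edgeR. Ahcy, the hydrolase that clears S-adenosylhomocysteine, had a log2 fold change of 0.00. Of the 10 genes in the list, 1 was higher and 3 were lower at an unadjusted p under 0.05, Ahcyl1 among the latter. Over all genes tested, 11.0% were higher and 9.80% lower at that threshold. In the list 6 of 10 had an estimate above 0, with a median of 0.01. Adk, which clears adenosine, and Mtr, methionine synthase, had -0.36 and -0.35 (edgeR adjusted p = 0.15 and 0.13). Mat1a, the liver form of the synthetase, had 0 to 16 reads in a library, too few to compare.

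Of the 5 genes of the exon junction complex, which is known to keep m6A off inner exons, 0 passed by either p, from -0.39 for Magohb to 0.14 for Eif4a3. The 6 genes that supply 2-oxoglutarate to the erasers also held 0 by either p, from -0.23 for Idh3a to 0.09 for Idh3b.

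**Figure D5:**
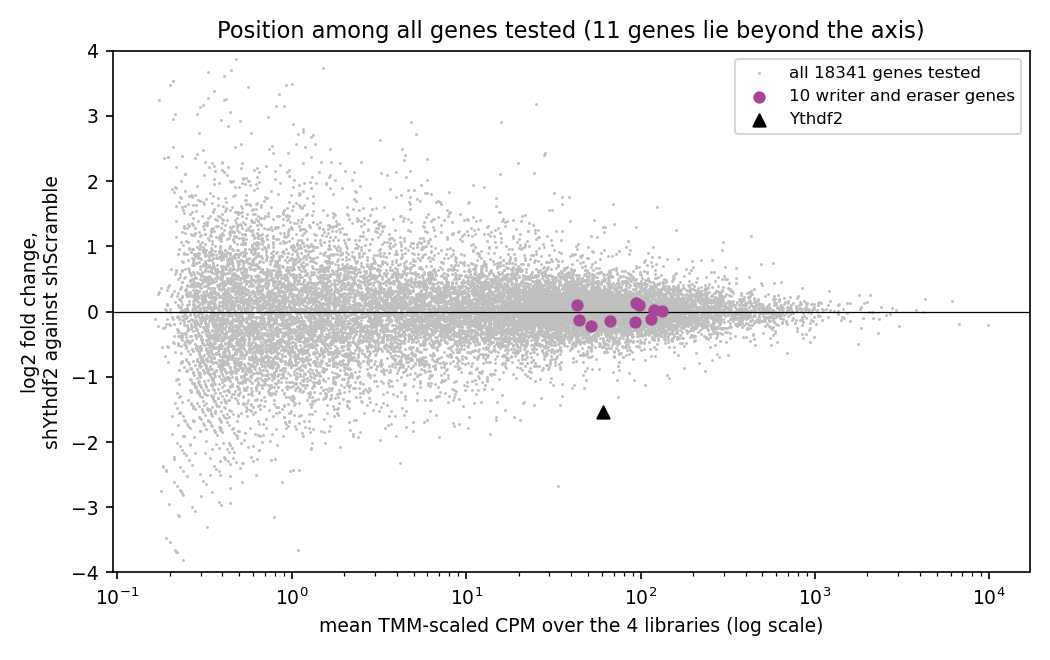
Log2 fold change, shYthdf2 against shScramble, against the mean TMM-scaled CPM over the 4 libraries on a log axis for the 18341 genes tested (grey), with the 10 writers and erasers in purple and Ythdf2 as a black triangle. 11 genes lie beyond the plotted range of 4 on the log2 scale. The members sit between -0.21 and 0.13, among genes of similar level, and Ythdf2 lies at -1.55.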

How the data were processed

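The authors deposited raw counts of reads per gene in 1 table with a column for each of the 4 libraries, unnormalized and not pooled. Per the file headers, featureCounts 2.0.3 counted reads over RefSeq exons of mm10 with the paired-end option but without counting pairs, so both reads of a fragment were counted (61.5% to 63.9% of counts from 1 to 20 were even), and without a strand option although the libraries were stranded. The submitters' processing notes also name fastp 0.19.4, HISAT2 2.2.1 and DESeq2 1.40.2. The deposited gene length merges all exons of a gene. The 4 count columns were used, with 0 other per-sample columns in the table. Groups and replicate numbers came from the sample titles.

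From the counts, edgeR 4.0.16 in R 4.3.3 (quasi-likelihood F test, two-sided, TMM scaling, filterByExpr with a minimum count of 10 and a minimum total of 15, Benjamini-Hochberg over 18341 genes holding 99.9% of reads) was fitted without covariates, after being tested on simulated data. The biological coefficient of variation was 15.8%. Standard errors were the absolute fold change over the root of the F statistic, and intervals from the t distribution with the degrees of freedom of the fit. Libraries of 31113006 to 36422510 reads give each member 1195 reads or more. Counting errors assume independent reads, which reads without molecular identifiers are not, so they cover counting error only. Alternatives were RLE, upper quartile and total-count scaling, no filter, a mean of at least 1 CPM, halved counts, DESeq2 1.42.0, limma-voom 3.58.1, the replicate number as a block, leaving out each library, and the study's criteria in DESeq2. Named genes were the members, Ythdf2 and, in each pathway list, genes past an adjusted or unadjusted p of 0.05 and those with the highest and lowest fold change, except for a gene that is not reported here. The members and lists were chosen with earlier results of these data known. Sequences and motifs came from GENCODE M21 transcripts (GRCm38, the same assembly as mm10), 1 per gene with the longest coding sequence. The p-values of edgeR set the difference between the groups against the spread between these libraries. Each gene's spread is estimated in part from other genes, with 7.85 prior and 2 residual degrees of freedom.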

Additional observations from a re-analysis of the deposited data

How the results depend on the processing

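Across 13 other fits and 10 members, 122 of 130 estimates kept their sign and 8 did not, and 1 passed an adjusted p under 0.05. The signs that turned were those of Alkbh5 (-0.01 with upper quartile scaling, 0.00 with a mean of at least 1 CPM, -0.04 without shScramble replicate 1 and -0.03 without shYthdf2 replicate 1), Mettl3 and Rbm15b (both -0.02 without shScramble replicate 2), Wtap (-0.02 without shYthdf2 replicate 2) and Rbm15 (0.10 without shYthdf2 replicate 1). With a library left out, Alkbh5 reached 0.06, Mettl3 and Rbm15b 0.23 and Wtap 0.08. The estimate that passed was that of Rbm15, at -0.43 without shYthdf2 replicate 2, which leaves a single knockdown library. Counts over all genes also rose in that fit, as given below. The members' median of -0.06 ran from -0.09 to 0.01 with a library left out. Members apart between the groups were 0 higher with upper quartile scaling and with library totals (25.1% and 26.5% of all genes), and 4 and 1 lower (26.9% and 25.6%). With the GENCODE length, an alternative added after the data had been seen, levels per length were 21.3 for Mettl3, 58 for Wtap, 15.5 for Rbm15, 13.4 for Cbll1, 26.6 for Fto and 23.2 for Alkbh5.

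Counts over all genes moved more than the members. Called higher and lower, 445 and 273 became 1095 and 843 without a filter and 800 and 602 with DESeq2, and ran from 534 (without shScramble replicate 2) to 1175 (without shYthdf2 replicate 2) and from 300 to 1113 with the same libraries left out. The other pathway genes without Ythdf2 (0 higher and 1 lower) became 1 and 3 without a filter and with DESeq2, 0 lower under the study's criteria, and 0 to 2 higher and 0 to 6 lower with a library left out. Ratios of sums moved with the length used, as given with them, under 2 scales added after the data had been seen. The cause was not tested. With the replicate block, 1851 genes were higher and 1674 lower, 2 and 7 of the other pathway genes (the readers Ythdf1 higher and Fmr1, Prrc2a, Igf2bp2 and Igf2bp3 lower among them), and 0 members passed in either direction. Same-numbered libraries deviated together (r = 0.34 over 14441 genes, with only 2 pairs), and the labels do not say that the numbers pair them. With 2 libraries a group, changes of the members within their intervals could not be told from 0.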
